A study of Mus musculus with 8 samples.

Results

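The tricarboxylic acid (TCA) cycle enzymes other than succinate dehydrogenase (SDH) were followed in mouse T cells lacking SDHA, enzyme by enzyme before and after the SDH step. The 9 genes were taken by name from the 20170 genes of the deposited count matrix: Cs, Idh2, Idh3a, Idh3g, Ogdh, Dlst and Suclg1, which act before SDH, and Fh1 and Mdh2, which act after it. All 9 had enough counts to be tested in CD4 cells, where 14264 genes were tested, and in CD8 cells, where 13095 were.

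The study asked how loss of SDH activity alters T cells and their response to activation. Pan T cells were isolated magnetically from mouse spleen, dead cells were removed, and single-cell RNA was read with a droplet kit that counts the 3′ ends of transcripts by unique molecular identifiers (UMIs). The SDHA-KO mice carried Sdha fl/fl and CD4-Cre, a transgene in which the Cd4 promoter drives Cre, and WT mice were the controls; the labels give no age. Unstimulated T cells were cultured without added antibody, and stimulated T cells received soluble anti-CD3 at 5 µg/mL and anti-CD28 at 2.5 µg/mL for 48 h. With 2 libraries in each of the 4 groups, there were 8 libraries and 12846 cells. The labels do not say that replicates came from different mice, so the p-values measure the spread between these libraries, which may be technical.

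The TCA cycle takes the acetyl group of acetyl-CoA through a ring of mitochondrial reactions that release carbon dioxide and hand electrons to the respiratory chain. SDH, also complex II of that chain, oxidizes succinate to fumarate, so it links the cycle directly to respiration. T cells activated through the antigen receptor and CD28 grow, divide and draw on the cycle both for energy and for building blocks such as citrate and aspartate.

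Citrate synthase (Cs, chr10:128337734-128362479, plus strand) joins acetyl-CoA to oxaloacetate at the entry of the cycle. The isocitrate step is taken by the mitochondrial NADP-dependent enzyme Idh2 (chr7:80094846-80115392, minus strand) and by the NAD-dependent enzyme, of which Idh3a (chr9:54586334-54604661, plus strand) is the catalytic subunit and Idh3g (chrX:73778963-73786897, minus strand) a regulatory one. Ogdh (chr11:6291633-6356642, plus strand) and Dlst (chr12:85110833-85134845, plus strand) are subunits of the alpha-ketoglutarate dehydrogenase complex. Suclg1 (chr6:73248382-73276911, plus strand) is the alpha subunit of succinyl-CoA ligase, which makes the succinate that SDH uses. Beyond SDH, fumarate hydratase (Fh1, chr1:175600374-175625635, minus strand) makes malate, and malate dehydrogenase (Mdh2, chr5:135778480-135790398, plus strand) returns it to oxaloacetate. Positions span whole genes with exons and introns in the GENCODE annotation of GRCm38, which is the mm10 build named in the submitters' processing notes. Fh1 overlaps Kmo on the opposite strand, and since the sources do not state how strand was used in counting, reads of this overlap cannot be told apart.

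RefSeq promoter entries on GRCm38.p6 matched 8 of the 9 genes, some with several starts, and Idh3a was not among them. The stretches upstream of the start that no annotated exon covers are printed for Cs, the enzyme whose KO difference ran opposite to that of the other enzymes called in CD4 cells, and for Idh3g and Mdh2, which were higher in SDHA-KO cells of both classes. They run 5′ to 3′ on the strand of the gene, with capitals marking the motif found. The Cs stretch is chr10:128337477-128337726, plus strand. That of Idh3g is chrX:73786898-73787027, minus strand, between Idh3g and its divergent neighbour Ssr4. That of Mdh2 is chr5:135778399-135778479, plus strand.
Cs: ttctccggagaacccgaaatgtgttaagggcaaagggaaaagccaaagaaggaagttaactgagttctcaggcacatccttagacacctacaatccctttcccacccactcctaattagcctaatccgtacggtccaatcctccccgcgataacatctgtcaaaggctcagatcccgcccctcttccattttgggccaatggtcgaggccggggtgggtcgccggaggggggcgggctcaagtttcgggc
Idh3g: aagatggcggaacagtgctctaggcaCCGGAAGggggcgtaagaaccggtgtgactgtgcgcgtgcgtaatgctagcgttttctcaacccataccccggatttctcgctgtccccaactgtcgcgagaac
Mdh2: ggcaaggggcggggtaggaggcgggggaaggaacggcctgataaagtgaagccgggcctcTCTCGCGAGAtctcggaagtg
Both strands of each whole promoter entry, which reaches from 250 bases before to 50 bases after the start, were searched for CACGTG (the E-box of MYC), ACGTG (the core of the hypoxia response element, which CACGTG contains), the core of the NRF1 site (GCGC and GCGC with any 2 bases between), CCGGAAG (an ETS core) and TCAAGGTCA (the site of estrogen-related receptors). Over all 32851 promoters, the shares holding them were 7.15%, 19.6%, 6.23%, 8.86% and 0.423%. Of the 8 enzymes with an entry, 1, 2, 0, 2 and 0 held them, in that order. The Cs stretch above holds none of these letters, and that of Idh3g holds the ETS core. The Mdh2 entry holds TCTCGCGAGA at 3 positions, the first of which is printed; this motif, the most frequent word of 10 bases there that equals its own reverse complement, was chosen after the sequence was seen and is in 0.466% of all promoters.

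The targeted gene Sdha was read first in every library, as CPM, the gene's UMIs relative to the library total scaled by the trimmed mean of M values (TMM). In CD4 cells it was 74.0 and 73.1 CPM in stimulated WT libraries against 26.5 and 26.4 CPM in stimulated SDHA-KO libraries, and 100.5 and 100.1 CPM against 49.8 and 49.4 CPM unstimulated. In CD8 cells the values were 76.2 and 74.9 against 53.3 and 50.4 CPM stimulated, and 91.4 and 95.7 against 39.0 and 37.6 CPM unstimulated. Sdha was thus lower in every SDHA-KO library, least so in the whole class of stimulated CD8 cells (log2 fold change -0.54, against -1.47 in stimulated CD4 cells). That class was mixed in SDHA-KO, and values for a narrower choice of CD8 cells are given below. Counts of 3′ ends cannot separate intact from recombined Sdha transcripts.

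Library sums ranged from 6776027 to 34087903 UMIs in CD4 cells and from 3640136 to 22311319 UMIs in CD8 cells, and 23 barcodes occurred in more than 1 library. The share of a cell's UMIs on mitochondrially encoded genes, percent.mt, moved with genotype after stimulation. In CD4 cells 39.1% and 41.0% of stimulated WT cells were under 10 percent.mt against 86.9% and 90.0% of SDHA-KO cells, and in CD8 cells 24.3% and 29.3% against 65.0% and 64.1%. The CD8 class of SDHA-KO libraries also held gamma-delta T cell transcripts: the 5 measured of 7 listed markers summed to 287 and 288 CPM in the stimulated SDHA-KO libraries against 22.3 and 26.0 CPM in WT. The defining markers of the class itself, Cd8a and Cd8b1, summed to 211 and 273 CPM there against 464 and 499 CPM. The 6 B cell markers summed to 345 CPM in the CD8 class of stimulated SDHA-KO replicate 1 and to 64.1 CPM in replicate 2, against 53.7 and 50.0 CPM in WT, and their part in the results was not tested. The genotypes also filled different clusters of the authors: central memory (Tcm) clusters held 62.9% and 61.4% of stimulated WT CD4 cells against 20.8% and 17.4% of SDHA-KO cells, and 76.8% and 71.1% against 44.0% and 41.4% of CD8 cells, the rest being in effector memory (Tem) clusters. Results are therefore also given, where they bear on a call, in cells under 10 percent.mt and in strict cells, which carry a UMI of the marker of their own class and none of the other class or of Trdc. Strict cells were 169 of 511 and 147 of 396 cells of the stimulated SDHA-KO CD8 class, against 736 of 844 and 709 of 834 in WT. A stimulated strict CD8 cell held a mean of 1.10 Sdha UMIs in SDHA-KO and 2.28 in WT, a ratio of 0.483. The ratio was 0.943 in the whole stimulated CD8 class. The comparisons within a class share libraries and are not independent of each other.

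Stimulation raised most of the enzymes in WT cells and moved Fh1 most. In CD4 cells 6 of the 9 rose and 1, Ogdh, fell, where 36.2% of all genes tested rose and 30.1% fell at an adjusted p under 0.05 (edgeR quasi-likelihood test, Benjamini-Hochberg). In CD8 cells 6 rose and 1, Idh2, fell, beside 35.5% and 30.3% of all genes. The median log2 fold change of the 9 was 0.69 in CD4 cells and 0.40 in CD8 cells, beside 0.08 and 0.09 over all genes tested.

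Fh1 stood at 22.1 and 24.0 CPM in unstimulated WT CD4 cells and at 75.1 and 82.6 CPM after stimulation. The groups did not overlap, and the log2 fold change was 1.77 ± 0.12 (SE; adjusted p = 1.09e-07). In CD8 cells Fh1 went from 24.6 and 22.3 CPM to 62.1 and 65.6 CPM (1.45 ± 0.14, adjusted p = 3.42e-06). Mdh2, the other enzyme beyond SDH, rose from 131 and 129 CPM to 226 and 239 CPM in CD4 cells (0.84) and from 131 and 135 CPM to 198 and 205 CPM in CD8 cells (0.60). Of the enzymes before SDH, Cs rose from 48.6 and 42.7 CPM to 82.9 and 86.0 CPM in CD4 cells (0.89) and from 44.3 and 43.1 CPM to 80.4 and 98.5 CPM in CD8 cells (1.04). In neither enzyme did a stimulated WT library reach down to an unstimulated one.

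Idh3a also rose in both classes, by log2 fold changes of 1.11 and 0.65, and Suclg1 by 0.69 and 0.40. Idh3g rose by 0.29 in CD4 cells (adjusted p = 0.0177), a call lost without WT unstimulated replicate 1 (0.24) or WT stimulated replicate 2 (0.21); in CD8 cells it was -0.10 (adjusted p = 0.367). Idh2 and the subunits of the alpha-ketoglutarate dehydrogenase complex had other patterns. Idh2 fell in CD8 cells from 36.0 and 36.8 CPM to 23.9 CPM in both libraries (-0.61, adjusted p = 0.000408), and in CD4 cells its groups overlapped (0.06, adjusted p = 0.61). Ogdh fell slightly in CD4 cells (-0.26, adjusted p = 0.0121), which was lost without WT unstimulated replicate 2 (-0.18), and Dlst passed the test in CD8 cells (0.38, adjusted p = 0.0079) but not in CD4 cells (-0.01). The falls of Idh2 and Ogdh are relative to the library total. Per WT cell the means of all the enzymes were higher after stimulation. Idh2 went from 0.284 to 0.718 UMIs per CD8 cell and Ogdh from 0.526 to 2.04 UMIs per CD4 cell. The calls of Dlst and Suclg1 in CD8 cells were lost without 1 library: Dlst without WT unstimulated replicate 2 (0.38) or WT stimulated replicate 1 (0.33), and Suclg1 without WT unstimulated replicate 1 (0.29).

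In SDHA-KO cells stimulation raised 8 of the 9 enzymes in CD4 cells, all but Ogdh, where 36.6% of all genes rose, and 7 in CD8 cells, all but Ogdh and Idh2, where 37.2% did. The median was 0.99 in CD4 cells and 0.98 in CD8 cells beside 0.03 and 0.10 over all genes. In strict cells the SDHA-KO counts were the same but for Ogdh in CD4 cells, which fell (-0.21, adjusted p = 0.0364), as did 33.3% of all genes. Fh1 again had the highest estimate, 2.04 ± 0.11 in CD4 cells and 1.88 ± 0.15 in CD8 cells. In WT cells under 10 percent.mt most estimates were larger than in all WT cells, a difference that was not tested: Mdh2 rose by 1.25 in CD4 cells and 1.17 in CD8 cells, Idh3a by 1.48 and 1.14, and Suclg1 by 1.04 and 0.85. Idh3g then rose in both classes (0.71 and 0.43), Idh2 rose in CD4 cells (0.49) and was -0.05 and not called in CD8 cells. In those fits 7 enzymes rose and 1 fell in CD4 cells, where 37.7% of genes rose and 32% fell, and 7 rose in CD8 cells, where 36.1% of genes did.

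**Figure D1:**
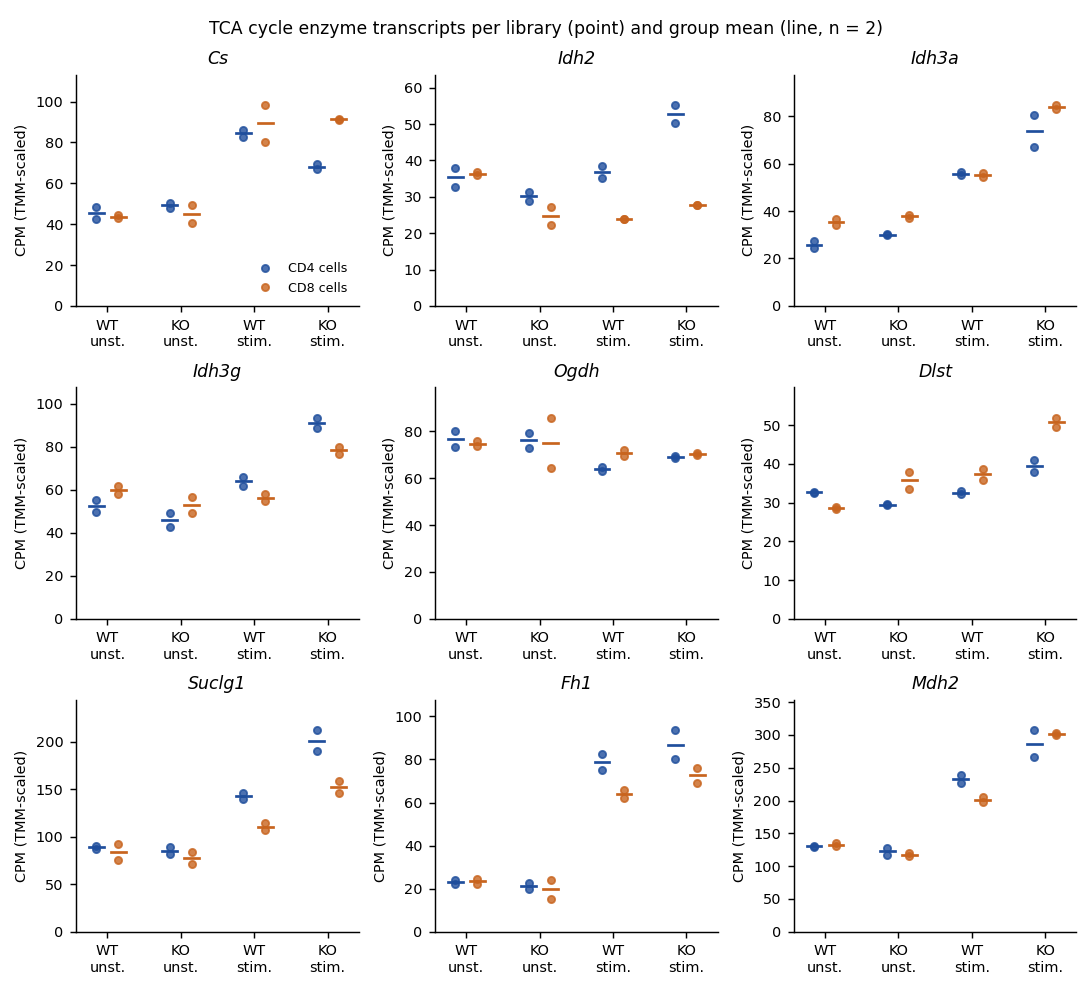
Level of each of the 9 enzymes in every library, in CPM (TMM-scaled), by class, genotype and stimulation; each point is 1 library and there are 2 in each group. Fh1 and Mdh2 rise with stimulation in both genotypes, from 22.1 and 24.0 CPM to 75.1 and 82.6 CPM for Fh1 in WT CD4 cells, and in stimulated CD4 cells Cs lies lower in SDHA-KO than in WT.

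Among stimulated CD4 cells, Cs was lower and 6 of the other 8 enzymes were higher in SDHA-KO than in WT. Of all genes tested 43.2% were called in this comparison, 22.7% higher and 20.5% lower, so that the members' count stands against a broad background. The median difference of the 9 was 0.30 on the log2 scale beside -0.00 over all genes.

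Cs was 82.9 and 86.0 CPM in the WT libraries and 69.5 and 66.8 CPM in the SDHA-KO libraries. Both SDHA-KO libraries lay below both WT libraries (-0.31 ± 0.075, adjusted p = 0.00651); without WT replicate 2 the call was lost (-0.27, adjusted p = 0.0687). The isocitrate enzymes moved the other way. Idh2 was 35.1 and 38.6 CPM in WT against 50.4 and 55.3 CPM in SDHA-KO (0.52 ± 0.091, adjusted p = 0.000936). Idh3a was 55.1 and 56.3 against 67.1 and 80.6 CPM (0.41 ± 0.092, adjusted p = 0.00434), and Idh3g was 61.9 and 66.1 against 88.6 and 93.6 CPM (0.51 ± 0.083, adjusted p = 0.000611). In all 3 the groups were apart.

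Suclg1, at the last step before SDH, was 139 and 146 CPM in WT and 212 and 190.0 CPM in SDHA-KO (0.49 ± 0.077, adjusted p = 0.000463). Dlst was 32.9 and 32.2 against 37.8 and 41.1 CPM (0.28 ± 0.079, adjusted p = 0.0144), and its partner Ogdh was 63.0 and 64.9 against 69.5 and 68.7 CPM, which did not pass (0.11, adjusted p = 0.242). Beyond SDH, Mdh2 was 226 and 239 against 266 and 307 CPM (0.30 ± 0.083, adjusted p = 0.0132), while Fh1 overlapped between the genotypes at 75.1 and 82.6 against 80.1 and 93.5 CPM (0.14 ± 0.092, adjusted p = 0.247). The calls of Dlst and Mdh2 rested on single libraries: Dlst was no longer called when replicate 1 (0.31) or 2 (0.28) of WT or replicate 2 of SDHA-KO (0.23) was left out, nor Mdh2 when replicate 1 of WT (0.27) or 2 of SDHA-KO (0.21) was.

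Among stimulated CD8 cells 5 of the 9 enzymes were higher in SDHA-KO and none was lower, where 50.4% of all genes tested were called and 26.8% were higher. The median difference of the 9 was 0.45 beside -0.01 over all genes. Mdh2 was 198 and 205 CPM in WT and 303 and 299 CPM in SDHA-KO (0.58 ± 0.064, adjusted p = 2.9e-05). Idh3a was 54.4 and 56.0 against 84.8 and 82.8 CPM (0.60 ± 0.071, adjusted p = 4.5e-05). Both enzymes were higher in every SDHA-KO library than in either WT library.

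Idh3g (0.48), Suclg1 (0.46) and Dlst (0.45) made up the other calls, each again with the groups apart. Dlst was 38.7 and 35.8 CPM in WT and 51.9 and 49.5 CPM in SDHA-KO (adjusted p = 0.0011). Cs did not differ beyond its spread: the WT libraries, at 80.4 and 98.5 CPM, enclosed the SDHA-KO libraries at 91.6 and 91.2 CPM (0.03 ± 0.098, adjusted p = 0.812). Idh2 (0.21, adjusted p = 0.0752), Fh1 (0.18, adjusted p = 0.168) and Ogdh (-0.01, adjusted p = 0.939) did not pass. No called enzyme of the CD8 class was lost when any 1 library was left out. In strict CD8 cells, in which the gamma-delta markers summed to 13.7 and 9.75 CPM in SDHA-KO, 6 enzymes were higher, the same 5 and Idh2 (0.46), where 25% of genes were higher; Cs was -0.22 (adjusted p = 0.119). In strict CD4 cells 6 were higher and Cs lower (-0.32), beside 21.2% and 19.8% of all genes.

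The genotype difference itself differed between the classes for 3 enzymes after stimulation, in a fit with library as a block in which 22.4% of genes were called. On the log2 scale the CD8 minus CD4 difference was 0.33 ± 0.090 for Cs (adjusted p = 0.0338), -0.32 ± 0.096 for Idh2 (adjusted p = 0.0482) and 0.27 ± 0.081 for Mdh2 (adjusted p = 0.0476). Each of these was lost without 1 or another library. Cs lost its call when replicate 1 of WT (0.21) or either replicate of SDHA-KO (0.35 and 0.30) was left out. Idh2 lost it when either replicate of WT (-0.25 and -0.38) or replicate 2 of SDHA-KO (-0.26) was, and Mdh2 when either replicate of WT (0.28 and 0.27) or replicate 1 of SDHA-KO (0.16) was. None of the 9 was called in cells under 10 percent.mt or in strict cells. The share of all genes called in those fits was not kept. A loss of calls particular to the enzymes therefore cannot be told from a general one.

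**Figure D2:**
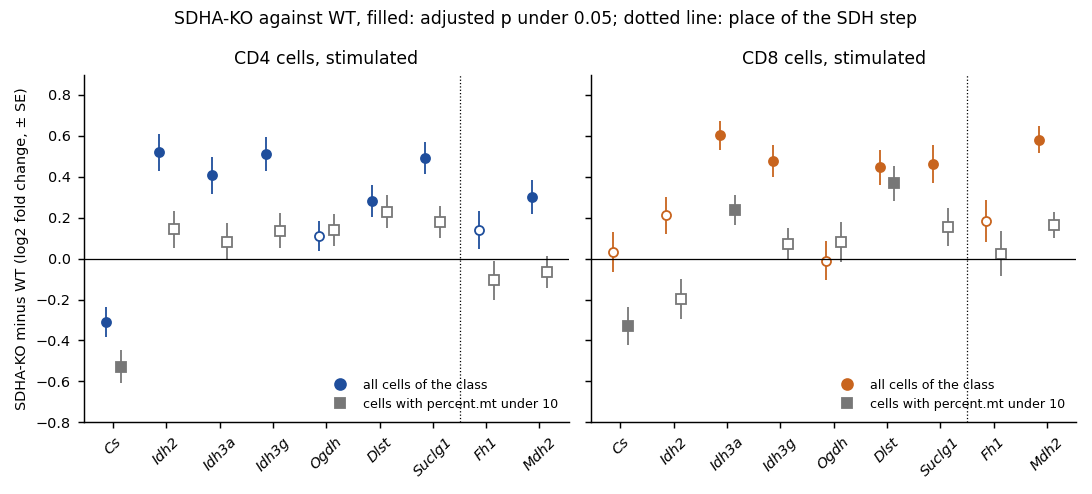
SDHA-KO minus WT difference of each enzyme on the log2 scale, with its standard error, in stimulated cells of each class. All cells of the class and its cells under 10 percent.mt are shown, and each estimate compares 2 libraries with 2. In all stimulated CD4 cells Cs lies at -0.31 while 6 enzymes lie at 0.28 or above and passed the test, and in cells under 10 percent.mt Cs alone passed, at -0.53.

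Without stimulation no enzyme passed the test between SDHA-KO and WT. None of the 9 was called by edgeR in CD4 cells, where 1.1% of all genes were, or in CD8 cells, where 0.947% were. At an unadjusted p under 0.05 there were 0 in CD4 cells and 3 in CD8 cells, Mdh2 (-0.17), Idh2 (-0.56) and Dlst (0.32). DESeq2 called 0 in both classes. In strict cells edgeR called 0 in both classes, where 1.17% of all genes were called in CD4 cells and 1.87% in CD8 cells. Weighting every cell equally in limma called 0 in CD4 cells and 1 in CD8 cells. Shares over all genes are not given for the unadjusted threshold, DESeq2 or limma, so those counts are not read as results about the enzymes in particular. Idh2 had the estimate farthest from 0, with 36.0 and 36.8 CPM in WT CD8 cells against 27.3 and 22.2 CPM in SDHA-KO (-0.56 ± 0.13, adjusted p = 0.0832). Cs was 48.6 and 42.7 CPM in WT CD4 cells and 48.1 and 50.6 CPM in SDHA-KO, so the libraries overlapped. The medians of the 9 were -0.09 in CD4 cells and -0.12 in CD8 cells.

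The difference between the genotypes after stimulation was next set against that without it, by an interaction term on all 8 libraries. In CD4 cells 6 enzymes passed, where 21.4% of genes did: Idh2 by 0.75 ± 0.15, Idh3g by 0.71 ± 0.13, Suclg1 by 0.55 ± 0.12, Dlst by 0.43 ± 0.12, Mdh2 by 0.39 ± 0.12 and Cs by -0.42 ± 0.12 on the log2 scale. In CD8 cells 5 passed, where 23.8% of genes did: Idh2 by 0.77 ± 0.16, Mdh2 by 0.76 ± 0.10, Idh3g by 0.66 ± 0.13, Suclg1 by 0.58 ± 0.15 and Idh3a by 0.51 ± 0.13. Fh1 and Ogdh passed in neither class. In strict cells 4 enzymes passed in each class, beside 18.6% of genes in CD4 cells and 23.8% in CD8 cells. The calls of Cs (-0.42, adjusted p = 0.0551) and Mdh2 (0.37, adjusted p = 0.0839) in CD4 cells and of Idh3a in CD8 cells (0.23, adjusted p = 0.316) were lost there. Some of these calls rested on single libraries: of the 8 fits that each left out 1, the call was lost in 5 for Cs, 7 for Dlst and 6 for Mdh2 in CD4 cells, and in 3 for Idh3a and 3 for Suclg1 in CD8 cells.

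In cells under 10 percent.mt fewer of the enzymes differed between stimulated SDHA-KO and WT cells, and Cs was lower in SDHA-KO in both classes. In CD4 cells Cs was 95.1 and 98.5 CPM in WT and 69.0 and 65.3 CPM in SDHA-KO (-0.53 ± 0.080, adjusted p = 0.000463) and was the only enzyme of the 9 called, where 32.8% of genes were. In CD8 cells it was 103 and 123 CPM in WT against 89.7 CPM in both SDHA-KO libraries (-0.33 ± 0.095, adjusted p = 0.0189). The SDHA-KO libraries lay below the WT libraries in both classes.

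Mdh2 in CD4 cells under 10 percent.mt overlapped between the genotypes, at 293 and 305 CPM in WT against 268 and 304 CPM in SDHA-KO (-0.06). The estimates of Suclg1 (0.18, adjusted p = 0.101), Idh2 (0.14), Idh3g (0.14) and Idh3a (0.08) were also below those in all CD4 cells. Dlst was 0.23 (adjusted p = 0.0502). In CD8 cells, where 35.4% of genes were called, 2 enzymes beside Cs passed: Dlst, at 38.1 and 34.9 CPM in WT against 47.8 and 46.1 CPM in SDHA-KO (0.37 ± 0.088, adjusted p = 0.00754), and Idh3a, at 76.0 and 73.2 against 89.6 and 86.4 CPM (0.24 ± 0.074, adjusted p = 0.0262). Mdh2 was 0.16 there (adjusted p = 0.0667). The medians of the 9 were 0.14 in CD4 cells and 0.08 in CD8 cells, beside 0.00 and -0.01 over all genes. Of the interaction, Cs in CD4 cells was the only call left (-0.64 ± 0.12, adjusted p = 0.00557, with 14.2% of genes called), and none was called in CD8 cells (11.1%). Cells under 10 percent.mt differed in depth between the genotypes: the median was 59714 and 59711 UMIs per WT CD4 cell against 26638 and 26961 UMIs per SDHA-KO cell, and 64638 and 64273 against 47147 and 45782 UMIs in CD8 cells. The part of this gap in the result was not tested.

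The enzymes were then compared between stimulated cells at or over 10 percent.mt and those under it within each library, on nuclear UMIs only and with library as a block. Cells at or over 10 percent.mt had lower levels of 7 of the 9 enzymes, where 32.5% of genes were lower, with a median of -1.62 on the log2 scale beside 0.04 over all genes. Idh2 was 62.3 CPM under 10 percent.mt and 14.7 CPM at or over it in WT replicate 1, 63.8 and 15.1 CPM in WT replicate 2, 62.8 and 17.1 CPM in SDHA-KO replicate 1 and 72.5 and 16.6 CPM in SDHA-KO replicate 2. Idh2 thus had the largest fall of the 9 in this fit (-2.05 ± 0.079). Mdh2 (-1.89), Idh3g (-1.78), Idh3a (-1.62), Suclg1 (-1.62), Cs (-0.82) and Fh1 (-0.66) were also lower. Ogdh (0.07, adjusted p = 0.345) and Dlst (0.00, adjusted p = 0.992) were not.

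The subunits of the alpha-ketoglutarate dehydrogenase complex were thus the only members not called across the split. Within each side of the split the genotypes could be read side by side, without a test. The mix of classes differed between them. Under 10 percent.mt the 2 WT libraries held 336 and 396 CD4 cells and 205 and 244 CD8 cells. The SDHA-KO libraries held 988 and 1156 CD4 cells and 332 and 254 CD8 cells. The part of this mix in the values that follow was not tested. Cs in cells under 10 percent.mt was 149 and 164 CPM of nuclear UMIs in WT and 114 and 110.0 CPM in SDHA-KO, and in cells at or over it 69.7 and 74.7 against 83.1 and 78.3 CPM, so the order of the genotypes turned. Dlst was higher in SDHA-KO on both sides, at 52.2 and 50.3 against 60.3 and 62.8 CPM under 10 percent.mt and 47.2 and 43.8 against 73.6 and 67.7 CPM at or over it.

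**Figure D3:**
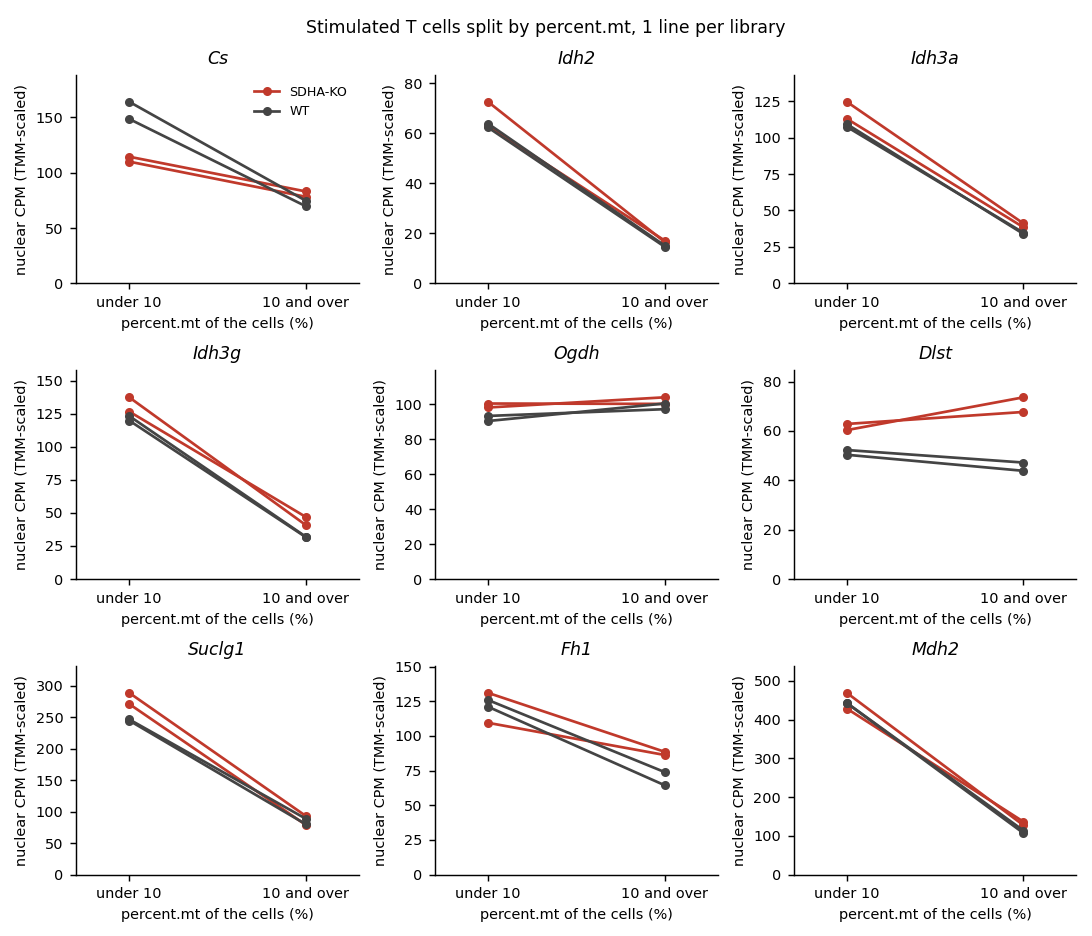
Level of each enzyme in stimulated cells, CD4 and CD8 together, under 10 percent.mt and at or over it, in CPM (TMM-scaled) of nuclear UMIs. The axis is linear from 0, and a line joins the values of each of the 4 stimulated libraries. Idh2 falls in every library, from 62.3 to 14.7 CPM in WT replicate 1, whereas Ogdh (0.07) and Dlst (0.00) did not pass the test.

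The subsets named by the authors, clusters numbered within a class, gave 12 stimulated and 11 unstimulated fits with at least 20 cells in each library, each with 2 libraries against 2. The members were called 23 times in these fits, 18 higher and 5 lower in SDHA-KO, and 22 of the calls were in stimulated cells. The share of all genes called ran from 0.496% to 32.6% by subset. In the stimulated subsets with a call among the members it was 27.8% in CD4 Tem1, 24% in Tem2, 23% in Tem3, 28.3% in Tem5, 17.1% in Tcm3 and 15.1% in Tcm4, and 27.4% in CD8 Tcm2, 14.3% in Tcm3 and 32.6% in Tem2. The 1 unstimulated call was Idh3a in CD4 Tem1 (1.19), where 7.83% of genes were called.

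Cs made 4 of the 5 lower calls, all in CD4 effector memory subsets. In CD4 Tem1 it was 100.1 and 100.4 CPM in WT against 69.3 and 65.0 CPM in SDHA-KO (-0.58 ± 0.10, adjusted p = 0.0019). In CD4 Tem3 Cs was 100.2 and 113 against 65.8 and 66.6 CPM (-0.69, adjusted p = 0.0024). CD4 Tem5 (-0.47, adjusted p = 0.0101) and CD4 Tem2 (-0.39, adjusted p = 0.0334) completed the calls, and in each of the 4 subsets the SDHA-KO libraries lay below the WT libraries. CD4 Tem7 went against the others without passing, at 53.0 and 50.3 CPM in WT against 83.3 and 86.2 CPM in SDHA-KO (0.70, adjusted p = 0.0957). Cs was below 0 in 7 of the 8 CD4 subsets and in 1 of the 4 CD8 subsets, CD8 Tem2 (-0.18, adjusted p = 0.256). CD4 Tem1 and Tem5 had a low median percent.mt in both genotypes, 2.9 and 2.81 in WT Tem1 against 1.7 and 1.5 in SDHA-KO, though WT Tem1 cells were deeper, at 60956 and 63265 against 32539 and 33755 UMIs per cell. In CD8 Tem2 the depth was alike, 71874 and 70955 UMIs per WT cell against 70251 and 72402 UMIs.

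The higher calls were spread over the other enzymes. Dlst was above 0 in all 8 CD4 and all 4 CD8 stimulated subsets, from 0.18 to 0.77 and from 0.35 to 0.58, and passed in CD4 Tem5 (0.67), CD8 Tcm3 (0.58) and CD8 Tem2 (0.35). Idh3a passed in CD4 Tem1 (0.36), CD4 Tem5 (0.40), CD8 Tcm2 (0.96) and CD8 Tem2 (0.33). Idh2 passed in CD4 Tcm4 (1.04), CD4 Tem2 (0.48) and CD4 Tem3 (0.43), and fell in CD8 Tem2 (-0.42). Mdh2 passed in CD4 Tcm3 (0.58), CD8 Tcm2 (0.98) and CD8 Tcm3 (0.82), Idh3g in CD4 Tcm4 (0.75), CD4 Tem3 (0.27) and CD8 Tcm2 (0.87), and Suclg1 in CD4 Tcm4 (0.55). Fh1 and Ogdh passed in none of the stimulated subsets. CD4 Tcm4 and CD8 Tcm2 were subsets of high percent.mt, with medians of 19.2 and 18.1 in WT against 9.07 and 9.35 in SDHA-KO, and of 18.3 and 17.4 against 13.3 and 18.2. Of the 23 subsets, 16 had enough cells under 10 percent.mt to be fitted there, and the 14 calls made in them were the same 14 as in all their cells. Nearly all cells of these 16 were under that limit already, as were 49 of 50 and 85 of 85 WT cells of stimulated CD4 Tem1. The 2 fits thus used almost the same cells, and their match cannot show whether the calls depend on percent.mt. The other 9 calls were in the 7 subsets not fitted under that limit. Without normalization for composition the count over all subsets was 45. No share over all genes is given for that setting, so the count is not read as a result about the enzymes in particular.

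**Figure D4:**
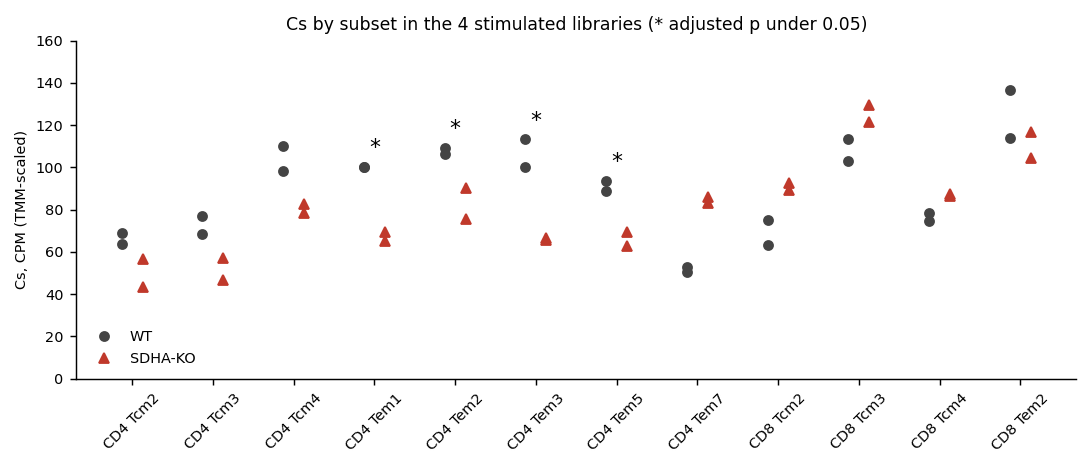
Level of Cs in each stimulated subset with enough cells, in CPM (TMM-scaled), 1 point for each of the 2 WT and 2 SDHA-KO libraries. The SDHA-KO libraries lie below the WT libraries in CD4 Tem1, Tem2, Tem3 and Tem5, where Cs passed the test, and above them in CD4 Tem7, where it did not.

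The makeup of the 9 enzymes was read as the share of their summed UMIs, which does not depend on the library total. Cs took 10.7% ± 0.10 (SD, n = 2) of the members' UMIs in stimulated WT CD4 cells and 7.05% ± 0.49 in SDHA-KO, and in CD4 cells under 10 percent.mt 10.1% ± 0.052 against 7.02% ± 0.50. In stimulated CD8 cells the shares were 12.6% ± 1.4 and 9.85% ± 0.045, and in strict CD8 cells 12.4% ± 1.2 and 8.17% ± 0.048. The share of Cs was thus lower in SDHA-KO in each of these 4 populations by more than the spread of either group. Without stimulation it was 8.94% ± 0.74 in WT and 10.1% ± 0.62 in SDHA-KO CD4 cells.

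Fh1 and Mdh2, the steps beyond SDH, together took 30.0% ± 0.12 of the members' UMIs in unstimulated WT CD4 cells and 39.3% ± 0.41 after stimulation, and in SDHA-KO 29.3% ± 1.3 and 38.5% ± 2.4. In CD8 cells the share went from 30.1% ± 0.39 to 37.4% ± 0.24 in WT and from 28.3% ± 1.1 to 40.3% ± 0.54 in SDHA-KO. The summed share of both was therefore larger after stimulation in both genotypes. Between stimulated genotypes their shares went apart in all CD8 cells: Mdh2 took 28.4% ± 0.29 in WT and 32.5% ± 0.040 in SDHA-KO, and Fh1 9.01% ± 0.046 in WT and 7.82% ± 0.58 in SDHA-KO. A share also falls when other members rise, and Fh1 itself was not lower, with means of 1.92 UMIs per WT and 2.99 per SDHA-KO cell. The Fh1 shares were 7.82% ± 0.16 in WT and 7.49% ± 0.51 in SDHA-KO CD8 cells under 10 percent.mt. In strict CD8 cells they were 9.01% ± 0.12 and 8.06% ± 0.87. These shares are compared by their spread, with no test.

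Counted per cell, not relative to depth, the genotypes stood differently. The mean total was 29433 and 30080 UMIs per stimulated WT CD4 cell against 24770 and 26548 UMIs in SDHA-KO, and 24784 and 26752 against 36973 and 36824 UMIs per CD8 cell. A stimulated CD4 cell held a mean of 2.69 Cs UMIs in WT and 1.90 in SDHA-KO, a ratio of 0.706, and under 10 percent.mt 5.31 and 2.09, a ratio of 0.394. All the other enzymes were also lower per SDHA-KO CD4 cell under 10 percent.mt, with ratios from 0.529 (Fh1) to 0.666 (Dlst). The median depth of these cells was 59714 and 59711 UMIs in WT against 26638 and 26961 UMIs in SDHA-KO. In CD8 cells the means were 2.69 and 3.77 in all cells and 7.28 and 5.12 under 10 percent.mt. Mdh2 was 7.42 in WT against 8.02 UMIs per CD4 cell in SDHA-KO, but 16.4 against 8.91 per CD4 cell under 10 percent.mt. Per CD8 cell it was 6.05 against 12.4 UMIs in all cells, and 18.4 against 18.2 under 10 percent.mt. The genotype order of Cs in CD8 cells, and of Mdh2 in CD4 cells, therefore depended on which cells were counted.

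For each enzyme the gene with the most similar pattern over the 8 means of class and group was sought among the 5727 genes that averaged 20 CPM or more, by the root mean square difference of centred log2 levels. Cs was nearest to Timm44 (0.0685), Suclg1 to Timm17b (0.0791), Fh1 to Mrpl45 (0.131) and Idh3a to Sdhd (0.0633). The first 2 of these neighbours belong to the import machinery of the mitochondrial inner membrane, Mrpl45 to the mitochondrial ribosome and Sdhd to SDH itself. Mdh2 was nearest to Isyna1 (0.0416), Ogdh to Casc3 (0.0392), Dlst to Cdk9 (0.0847), Idh3g to Capzb (0.0648) and Idh2 to Psmb9 (0.101). The means share libraries and normalization, so these distances are descriptions only.

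The genes around the 9 enzymes were read from a list of 42, by role. Over all genes, 22.7% were higher and 20.5% lower in the stimulated CD4 class, beside 26.8% and 23.5% for CD8. Under 10 percent.mt the shares were 16% higher and 16.7% lower for CD4, against 18.4% and 17% for CD8. Several of the counts by role are near these shares. Of the 4 SDH subunits, 3 were higher and Sdha lower in stimulated SDHA-KO cells of both classes, with Sdhb at 0.51 ± 0.078 in CD4 cells (adjusted p = 0.000397) and Sdhd at 0.69 ± 0.087 in CD8 cells (adjusted p = 6.9e-05). In cells under 10 percent.mt 0 subunits were higher in CD4 cells and 1 in CD8 cells, Sdhd (0.33). Of 5 other cycle enzymes 1 was higher in CD4 cells, Suclg2 (0.59), the beta subunit of the GTP-forming succinyl-CoA ligase that pairs with Suclg1, and it stayed so under 10 percent.mt (0.56). In CD8 cells 2 were higher, Idh3b (0.45) and Sucla2 (0.22). Under 10 percent.mt none of the 5 was higher and 1 was lower in CD8 cells. In strict CD8 cells 1 was higher, Idh3b (0.55), and 1 was lower.

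Of the cytosolic counterparts, 1 of 4 was higher and 2 lower in stimulated SDHA-KO CD4 cells, and none of 5 higher and 2 lower in CD8 cells. Idh1, the cytosolic NADP-dependent isocitrate dehydrogenase, was lower in stimulated SDHA-KO CD4 cells (-2.32 ± 0.22, adjusted p = 1.64e-05) and CD8 cells (-1.07 ± 0.32, adjusted p = 0.0169), and Acly, which splits the citrate exported from mitochondria, was lower in both classes too (-0.66 and -0.36). Both genes were also lower under 10 percent.mt, Idh1 at -2.34 and -1.29 and Acly at -0.77 and -0.56. The higher gene in CD4 cells was Mdh1 (0.29), the cytosolic malate dehydrogenase.

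At the entry of pyruvate, 4 of 12 genes were higher and 5 lower in CD4 cells, and 5 higher and 3 lower in CD8 cells. The subunits of the mitochondrial pyruvate carrier, Mpc1 (0.49 and 0.47) and Mpc2 (0.80 and 0.66), were higher in both classes, whereas pyruvate carboxylase, Pcx (-2.27 and -1.50), and the pyruvate dehydrogenase kinase Pdk1 (-1.45 and -1.54) were lower. Under 10 percent.mt 2 of the 12 were higher and 5 lower in CD4 cells, and 2 higher and 4 lower in CD8 cells, and Pcx (-2.15 and -1.17), Pdk1 (-1.28 and -1.30) and Mpc2 (0.44 and 0.31) were again called. Of 7 genes of the malic enzymes and glutamine entry, 2 were higher and 4 lower in CD4 cells, and 2 higher and 3 lower in CD8 cells. Under 10 percent.mt 1 was higher and 4 lower in CD4 cells, and 1 higher and 3 lower in CD8 cells. Glud1 (0.43 and 0.28) and Got2 (0.23 and 0.52) were higher and the alanine aminotransferase Gpt2 (-2.03 in both) and the glutaminase Gls2 (-1.63 and -1.08) lower. Of 6 mitochondrial carriers 4 were higher and 1 lower in CD4 cells and 3 higher in CD8 cells, led by Slc25a10, the dicarboxylate carrier that can move succinate and malate (0.88 and 1.18). Under 10 percent.mt 3 carriers were higher and 2 lower in CD4 cells, and 2 higher and 1 lower in CD8 cells. In unstimulated cells of each whole class Sdha was the only gene of the list called, and it was lower in both. In strict unstimulated CD8 cells the carrier Slc25a11 was also lower (-0.54).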

How the data were processed

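Single-cell RNA was measured in 8 libraries of mouse splenic T cells. The authors processed the reads with bcl2fastq and Cell Ranger on mm10 (versions not given in the sources used here), merged the libraries in Seurat, and removed cells with very many detected genes and clusters without CD3 transcripts. The authors deposited UMI counts for each gene in each cell, not normalized. They also deposited percent.mt, a percent of each cell's UMIs, and a log10 ratio of Cd4 to Cd8a, which was not used. Classes and subsets are the authors' clusters, and no further doublet filter was applied. No column belonged to another series (0).

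UMIs were summed per library and class or subset. Genes were filtered with filterByExpr (minimum count 10, minimum total 15), scaled by TMM and tested with edgeR 4.0.16 (quasi-likelihood, R 4.3.3) over all genes, Benjamini-Hochberg, threshold 0.05, with 1 term per group. Alternatives used limma 3.58.1 and DESeq2 1.42.0. The relative spread between libraries was 8.73% (CD4) and 8.24% (CD8). The fit was tested on simulated data of the stimulated SDHA-KO comparison, with 100 genes changed at each fold in each class. It recovered all of the genes changed 2-fold (100%). Of those changed 1.3-fold it recovered 15% in CD4 cells (14264 genes) and 20% in CD8 cells (13095 genes). Far more genes were called in the real comparison, so these shares do not carry over to it.

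All 9 enzymes are named in every comparison. Of other pathway genes, counts per role and up to 2 called genes of largest change in each direction are named, and for each enzyme the 1 nearest gene. The members and lists were chosen with earlier results of these data known. Weighting cells equally, and strict cells under 10 percent.mt, were added after seeing the data. Values of 1 gene of the pathway list are not reported here.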

Additional observations from a re-analysis of the deposited data

Results flagged for a closer look

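The difference between SDHA-KO and WT was larger or smaller after stimulation than without it for several enzymes, by the interaction term of the edgeR quasi-likelihood fit. In CD4 cells these were Idh2 (0.75 on the log2 scale, adjusted p = 0.00456), Idh3g (0.71, adjusted p = 0.00345), Suclg1 (0.55, adjusted p = 0.00735), Dlst (0.43, adjusted p = 0.0312), Mdh2 (0.39, adjusted p = 0.0443) and Cs (-0.42, adjusted p = 0.0257). In CD8 cells they were Idh2 (0.77, adjusted p = 0.00585), Mdh2 (0.76, adjusted p = 0.000621), Idh3g (0.66, adjusted p = 0.00472), Suclg1 (0.58, adjusted p = 0.0184) and Idh3a (0.51, adjusted p = 0.0164). Under 10 percent.mt only the call of Cs in CD4 cells was left.

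Between the classes, the genotype difference after stimulation was apart for Cs (CD8 minus CD4 0.33), Idh2 (-0.32) and Mdh2 (0.27). Each of these calls was lost in some of the fits that left a library out. None was made in cells under 10 percent.mt or in strict cells. The groups hold 2 libraries each, so no single library was tested as an outlier.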

How the results depend on the processing

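Of 1935 comparisons of a member's result with its value under an alternative, 1764 stayed on the same side of the threshold, and 79 changed sign with no call under either setting. The number of enzymes called moved as follows. Under 10 percent.mt it was 1 in place of 7 for SDHA-KO against WT in stimulated CD4 cells and 3 in place of 5 in CD8 cells, 1 in place of 6 for the interaction in CD4 cells and 0 in place of 5 in CD8 cells, and 0 in place of 3 for CD8 minus CD4. Over subsets it was 14 in place of 23 because 7 of the 23 subsets had too few cells to be fitted. In the other 16 all 14 calls were shared, but nearly all their cells were under 10 percent.mt already. Strict cells under 10 percent.mt gave 1, 2, 1 and 0 for the first 4 of these, and strict cells 0 for CD8 minus CD4 and 4 for the interaction in both classes. UMIs per cell gave 4 and 9 for the stimulated genotypes, 2 and 2 unstimulated in place of 0, and 1 for the CD4 interaction. Without composition normalization the CD8 interaction had 3 and the subsets 45. Weighting cells equally gave 1 for unstimulated CD8 cells. No share over all genes is given for UMIs per cell, missing composition normalization, cells weighted equally or strict cells under 10 percent.mt. Nor is a share given for CD8 minus CD4 under 10 percent.mt or in strict cells. Those counts are therefore not read as results about the enzymes in particular.

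Left out in turn, the libraries gave 5 to 7 (CD4) and 5 to 6 (CD8) for the stimulated genotypes, 0 to 0 unstimulated, 3 to 6 for the interaction in both classes, 6 to 7 for stimulation in WT of both classes, 8 to 8 (CD4) and 7 to 8 (CD8) in SDHA-KO, and 0 to 2 for CD8 minus CD4. With 1 library left in a group, it was assumed to vary like the others.

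The replicate numbers did not pair the libraries (correlations of same-numbered deviations from -0.16 to 0.0394); as a block they changed 1 call, Mdh2 in the CD4 interaction (0.39, adjusted p = 0.0685), and its count from 6 to 5.

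Directions that turned with a call in either setting, all on the log2 scale, were these. Under 10 percent.mt: Mdh2 in stimulated CD4 genotypes (-0.065), Cs in stimulated CD8 genotypes (-0.33) and Idh3g in CD8 WT stimulation (0.43). In strict cells under 10 percent.mt: Mdh2 in the CD4 interaction (-0.027) and stimulated CD4 genotypes (-0.10), Idh3a in the CD8 interaction (-0.19), Cs in stimulated CD8 genotypes (-0.58) and Idh3g in CD8 WT stimulation (0.44). As UMIs per cell: Mdh2 (-0.052) and Dlst (-0.012) in the CD4 interaction, Ogdh in stimulated CD8 genotypes (0.45), and on stimulation Ogdh in CD4 WT (1.95), CD4 SDHA-KO (1.64), CD8 WT (1.86) and CD8 SDHA-KO (1.97), Dlst in CD4 WT (2.21), and Idh2 (1.33) and Idh3g (1.85) in CD8 WT. With cells weighted equally, on stimulation: Ogdh in CD4 WT (0.14), CD8 WT (0.57) and CD8 SDHA-KO (0.39) and Dlst in CD4 WT (0.32). Without composition normalization: Ogdh (0.41) and Idh3g (0.39) in CD8 WT stimulation. Fewer cells enter the first 2 settings and no depth scaling the third; other causes were not tested. In the simulated data a 1.3-fold change was mostly not recovered. In the real comparison, where far more genes were called, some smaller differences passed, such as Cs between stimulated CD4 genotypes.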
